A study of Mus musculus with 11 samples.

Results

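The genes described here are 8 regulators of G-protein signalling (RGS) in mouse CD8 T cells: Rgs1, Rgs2, Rgs3, Rgs10, Rgs14, Rgs16, Rgs18 and Rgs19. They were taken by gene name from a table of raw RNA-seq counts that lists 52636 genes, and all 8 were found and tested. CD45RBhi and CD45RBlo memory cells (4 libraries each) came from spleens of C57BL/6 mice given 200000 plaque-forming units (pfu) of LCMV Armstrong into the peritoneum, and were sorted 42 to 45 days later as tetramer-positive cells binding a tetramer labelled Kb NP396, which carries a viral peptide. LCMV Armstrong is a strain of lymphocytic choriomeningitis virus that mice clear. Naive cells (3 libraries) were sorted as CD44lo CD8 T cells from C57BL/6 spleens, and their time entry reads 6 to 8 weeks without saying whether this is an age. The growth text of the naive samples repeats the infection given for the memory samples, so the labels do not settle whether the naive mice were infected. No allele or gene edit was given for any group. Whether the replicates of a group are different mice was not labelled. The p-values therefore cover only differences among these libraries, which may be technical.

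RGS proteins bind active G protein alpha subunits and speed the hydrolysis of GTP, which shortens signals from G-protein-coupled receptors such as those for chemokines and for the lipid sphingosine 1-phosphate. In lymphocytes these receptors steer cells into, within and out of lymphoid organs. The R4 subfamily (here Rgs1, Rgs2, Rgs3, Rgs16 and Rgs18) consists mostly of small proteins with little beside the RGS domain. Rgs10 and Rgs14 belong to the R12 subfamily and Rgs19 to the RZ subfamily.

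Libraries held 18024793 to 23151297 gene counts. Summed CD8 T cell markers lay at 7672 to 8786 CPM (counts scaled to the TMM-normalised library size) in CD45RBhi, 7182 to 8617 CPM in CD45RBlo and 7366 to 7853 CPM in naive libraries. Cd44, the memory marker used in the sort, averaged 256 CPM in CD45RBhi, 220 CPM in CD45RBlo and 14.6 CPM in naive cells. Cd4 had at most 9 counts in any library. The 5 CD4 T cell markers, Cd4 among them, summed to 12.5 to 18.5 CPM in CD45RBhi and 15.0 to 19.1 CPM in CD45RBlo. In naive libraries that sum was 4.93 to 5.61 CPM. Of 4 tested, Zbtb7b and Ctla4 were higher and Foxp3 was lower in each memory group than in naive cells. Over all genes, 22.3% were higher and 19.1% lower in CD45RBhi (edgeR adjusted p under 0.05). In CD45RBlo 22.4% were higher and 19.8% lower. These shares stand beside each such count in this paragraph. CD45RB is a splice form of CD45, so a count per gene cannot check that gate. Naive libraries held more erythroid, B cell, myeloid and platelet marker RNA. Erythroid markers summed to 0.304 to 1.57 CPM in CD45RBhi, 0.242 to 25 CPM in CD45RBlo and 234 to 524 CPM in naive libraries. B cell markers summed to 11.2 to 23.6 CPM in CD45RBhi, 15.7 to 23.8 CPM in CD45RBlo and 55.2 to 64.3 CPM in naive libraries. Of 8 tested, 6 were lower in CD45RBhi and 7 in CD45RBlo. Cd22, the 1 higher in each, averaged 7.93, 13.9 and 1.88 CPM in CD45RBhi, CD45RBlo and naive libraries. The mean B cell sums were 16.6, 19.2 and 61.2 CPM. Macrophage, monocyte and neutrophil markers summed to 29.0 to 40.9 CPM in CD45RBhi, 26.7 to 38.4 CPM in CD45RBlo and 45.3 to 72.2 CPM in naive libraries. Of 9 tested, 7 were lower in each memory group. Cd68, the 1 higher in each, averaged 31.8, 27.5 and 3.65 CPM in CD45RBhi, CD45RBlo and naive libraries. The mean sums of this list were 35.4, 33.0 and 59.7 CPM. Memory libraries held more NK cell marker RNA, on a list that memory CD8 T cells share in part. The list summed to 925 to 1149 CPM in CD45RBhi, 1046 to 1106 CPM in CD45RBlo and 46.0 to 54.9 CPM in naive libraries. Of 8 tested, 6 were higher and 0 lower in each memory group. Tyrobp and Fcer1g were not called, and Ncr1 had at most 2 counts in any library. Dendritic cell markers summed to 163 to 308 CPM in CD45RBhi, 125 to 227 CPM in CD45RBlo and 66.8 to 77.8 CPM in naive libraries. Of these, Itgax averaged 166 CPM in CD45RBhi, 123 CPM in CD45RBlo and 0.732 CPM in naive libraries. Of 4 tested, 2 were higher and 0 lower in each memory group. All 9 on the list had counts in naive libraries, 6 in CD45RBhi and 7 in CD45RBlo. Of 17 immediate early genes, which sorting stress can induce, 4 were higher and 8 lower in each memory group than in naive cells. The part of these signals in the members' results was not tested.

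The promoters of 3 members with an entry in the promoter table are shown, to set Rgs2 and Rgs16, higher in memory cells, beside Rgs10, which was far lower. The sequences are from RefSeq (GRCm38.p6), each running up to the annotated start and shortened by the few bases that another annotation counts as exon. Capitals mark GC boxes, GGGCGG on either strand, a motif bound by Sp1-type factors. The Rgs2 sequence is chr1:144004162-144004399 on the minus strand, Rgs16 is chr1:153740103-153740348 on the plus strand, and Rgs10 is chr7:128418174-128418422 on the minus strand. In the other annotation Rgs10 begins farther upstream, at 128418758, so its printed sequence lies within that gene span. The sequences of Rgs2 and Rgs16 lie outside theirs.
Rgs2: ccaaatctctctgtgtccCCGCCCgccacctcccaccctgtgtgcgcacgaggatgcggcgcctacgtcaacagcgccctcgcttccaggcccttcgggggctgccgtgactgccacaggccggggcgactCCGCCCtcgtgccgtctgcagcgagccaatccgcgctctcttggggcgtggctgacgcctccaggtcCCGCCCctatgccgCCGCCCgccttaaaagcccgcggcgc
Rgs16: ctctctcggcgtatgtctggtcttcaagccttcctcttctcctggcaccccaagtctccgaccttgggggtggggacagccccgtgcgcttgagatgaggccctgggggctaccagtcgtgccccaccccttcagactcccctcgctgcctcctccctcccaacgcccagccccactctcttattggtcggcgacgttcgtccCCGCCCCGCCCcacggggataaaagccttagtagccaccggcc
Rgs10: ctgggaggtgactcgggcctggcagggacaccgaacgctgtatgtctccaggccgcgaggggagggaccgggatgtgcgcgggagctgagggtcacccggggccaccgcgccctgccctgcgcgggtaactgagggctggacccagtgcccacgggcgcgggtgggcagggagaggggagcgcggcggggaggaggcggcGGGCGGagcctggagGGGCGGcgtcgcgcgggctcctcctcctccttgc

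Base composition and motifs were taken over the full 250 bases before each start. The 3 windows were rich in G and C, at 72.4% for Rgs2, 66.4% for Rgs16 and 76.4% for Rgs10, against a median of 52.4% over 32817 promoter windows of 250 bases. They held 30, 17 and 27 CpG pairs, against a median of 6. The windows not printed differed: those of Rgs3 had 48.4% and 56.8% G and C with 3 and 7 CpG pairs, and those of Rgs19 had 54.4% to 74.8% with 4 to 34. The table held 8 start sites for 5 members (Rgs2, Rgs3, Rgs10, Rgs16 and Rgs19), and 6 of these 8 windows held a GC box, against 32.7% of all windows. The GC box counted for Rgs3 lay among 152 bases of its window that another annotation counts as exon. The members' windows are not independent, since 3 of them belong to Rgs19 and 2 of those overlap. The Rgs2 window held 4 GC boxes, and the Rgs16 and Rgs10 windows held 2 each, those of Rgs16 overlapping. None of the other 9 motifs searched on both strands was found in the 8 windows. Among them were the AP-1 site TGANTCA (in 6.75% of all windows), the NFAT core TGGAAA (18.6%), the T-box motif GGTGTGA (3.33%), the RUNX site TGTGGT (14%) and the ETS site CCGGAAGT (2.88%). The others were the CRE TGACGTCA (1.55%), the forkhead site GTAAACA (3.16%), the TCF/LEF site CTTTGAT (3.21%) and the E-box CACGTG (6.02%).

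Memory cells were first compared with naive cells. Rgs18 passed the filter on low counts only through the naive group and is described apart. Of the other 7 members, 4 were higher and 2 lower in CD45RBhi than in naive cells, and the same was counted in CD45RBlo cells (edgeR's quasi-likelihood test, Benjamini-Hochberg adjusted p under 0.05 over 13735 genes). The call rate over all genes was 41.5% in CD45RBhi (22.3% higher, 19.1% lower) and 42.2% in CD45RBlo (22.4% higher, 19.8% lower), so called genes were common. The 4 higher members were Rgs1, Rgs2, Rgs3 and Rgs16, all of the R4 subfamily. The remaining R4 member, Rgs18, described apart for its low counts, was lower in both memory groups. Of the R12 and RZ members, Rgs10 and Rgs19 were lower and Rgs14 was not called. Both comparisons use the same 3 naive libraries and are not independent. Libraries of memory and naive cells did not overlap for 5 of these 7 members in CD45RBhi, where 47.4% of all genes did not overlap, and for 6 of 7 in CD45RBlo, where 49.6% did not. The median log2 fold change over the 7 was 0.82 in CD45RBhi and 1.00 in CD45RBlo, beside −0.01 over all genes in both. These medians are the values of Rgs2, with members on both sides of 0. With Rgs18 counted, the medians over the 8 were 0.32 in CD45RBhi and 0.46 in CD45RBlo. In these bulk samples, fewer cells with a transcript and less RNA per cell cannot be told apart.

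**Figure D1:**
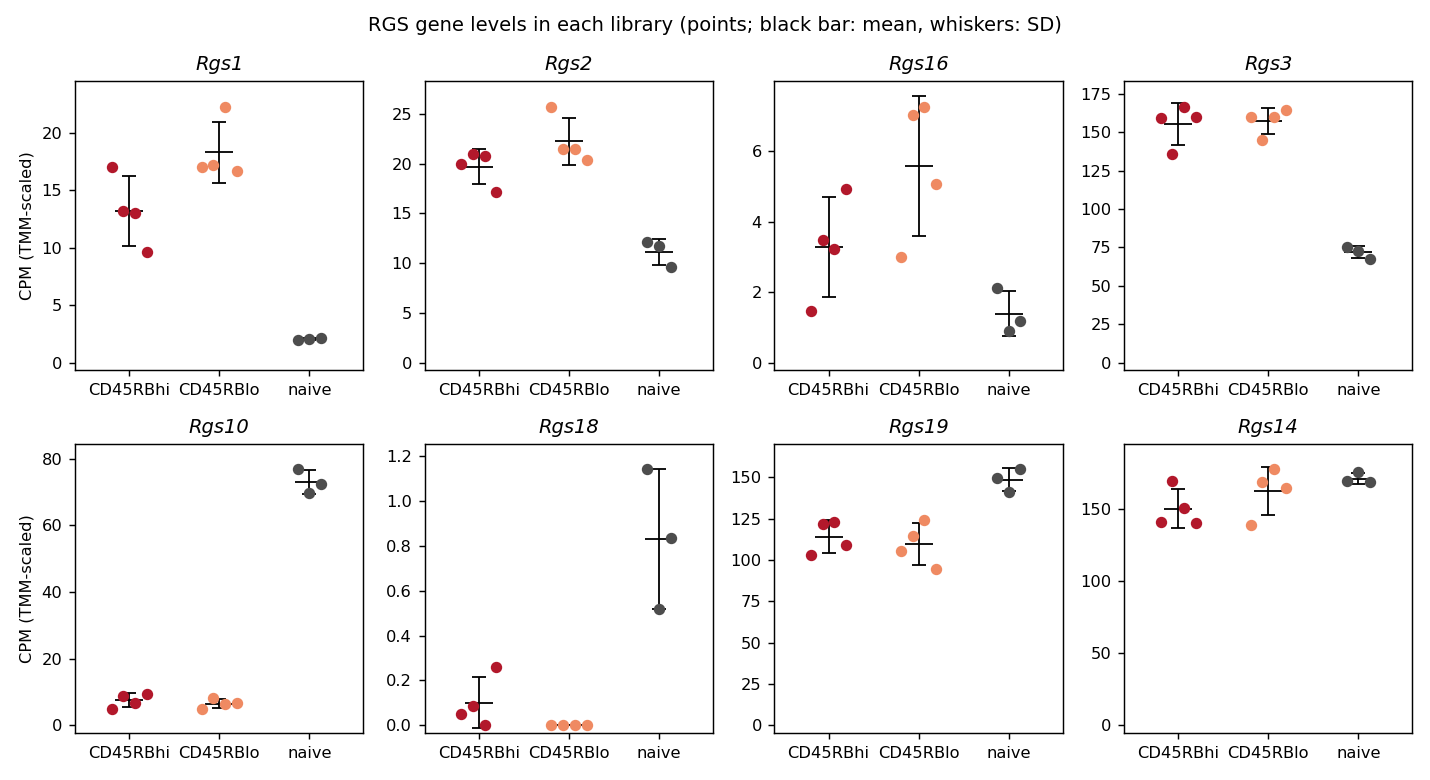
CPM of the 8 RGS genes in each library (vertical axes), with one point per library and bars for the group mean and SD, for CD45RBhi, CD45RBlo and naive cells (horizontal axes). Rgs1, Rgs2 and Rgs3 were higher in every memory library than in any naive library, and Rgs10 and Rgs19 were lower.

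Rgs1, which restrains lymphocyte migration towards chemokines, had the largest increase of the 8. It stood at 17.1, 13.1, 13.0 and 9.63 CPM in CD45RBhi libraries, at 17.1, 17.2, 22.3 and 16.6 CPM in CD45RBlo libraries, and at 1.96, 2.07 and 2.17 CPM in naive libraries. The lowest memory library was far above the highest naive library. Rgs1 was 6.38-fold higher in CD45RBhi than in naive cells (log2 2.67 ± 0.212, SE; edgeR adjusted p = 5.64e-07) and 8.82-fold higher in CD45RBlo than in naive cells (log2 3.14 ± 0.215; edgeR adjusted p = 1.24e-07).

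Rgs3, which acts on both Gi and Gq alpha subunits, was the most abundant R4 member. It had 159.5, 135.8, 166.7 and 159.7 CPM in CD45RBhi libraries, 159.9, 144.9, 160.1 and 164.6 CPM in CD45RBlo libraries, and 75.3, 72.9 and 67.7 CPM in naive libraries. Memory libraries formed a single range well above the naive one. Rgs3 was 2.16-fold higher in CD45RBhi (log2 1.11 ± 0.0906; edgeR adjusted p = 7.31e-07) and 2.19-fold higher in CD45RBlo than in naive cells (log2 1.13 ± 0.0907; edgeR adjusted p = 5.88e-07). The antisense gene Gm11209 overlaps Rgs3, and whether counting used the strand is not given in the sources used here.

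Rgs2, which prefers Gq alpha subunits, moved less. Its libraries had 19.9, 20.9, 20.8 and 17.2 CPM in CD45RBhi, 25.7, 21.5, 21.4 and 20.3 CPM in CD45RBlo, and 12.1, 11.7 and 9.65 CPM in naive cells. Every memory library again exceeded every naive one. Rgs2 was 1.77-fold higher in CD45RBhi (log2 0.82 ± 0.133; edgeR adjusted p = 0.00031) and 1.99-fold higher in CD45RBlo than in naive cells (log2 1.00 ± 0.134; edgeR adjusted p = 6.15e-05).

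Rgs16, which is induced in activated T cells and dampens chemokine responses, was scarce and the most variable of the members that were higher. It had 1.45, 3.47, 3.23 and 4.92 CPM in CD45RBhi libraries, 3.00, 7.03, 7.26 and 5.07 CPM in CD45RBlo libraries, and 2.10, 0.882 and 1.18 CPM in naive libraries. CD45RBlo libraries were all above the naive ones, while CD45RBhi replicate 1 lay below naive replicate 1. Rgs16 was 4.0-fold higher in CD45RBlo than in naive cells (log2 2.00 ± 0.448; edgeR adjusted p = 0.0030). The CD45RBhi difference of log2 1.22 ± 0.445 passed narrowly (edgeR adjusted p = 0.0424). That call was lost without CD45RBhi replicate 4 (log2 0.96, edgeR adjusted p = 0.117), CD45RBhi replicate 3 (1.23, edgeR adjusted p = 0.0693) or CD45RBhi replicate 2 (1.19, edgeR adjusted p = 0.0619). It was also lost without CD45RBlo replicate 4 (1.22, edgeR adjusted p = 0.0569), naive replicate 2 (0.99, edgeR adjusted p = 0.152) or naive replicate 3 (1.12, edgeR adjusted p = 0.127). Leaving out replicate 1 of both memory groups, chosen after seeing the data, gave log2 1.47 in CD45RBhi (edgeR adjusted p = 0.0045). The antisense gene Gm28513 overlaps Rgs16, with the same limit as for Rgs3.

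Rgs18, known from platelets and megakaryocytes, was at the limit of detection. It had 1, 2, 0 and 5 counts in CD45RBhi libraries, 0 in each of the 4 CD45RBlo libraries, and 25, 10 and 17 counts in naive libraries. Every memory library was below every naive one. Because the filter kept Rgs18 through the naive group alone, the test is given from the fit with no filter. There it was lower than in naive cells both in CD45RBhi (log2 −3.00, edgeR adjusted p = 0.0132) and in CD45RBlo (edgeR adjusted p = 0.00024). In the filtered fit without naive replicate 1 the CD45RBhi difference missed the threshold (log2 −2.71, edgeR adjusted p = 0.0519). Set against a floor of 3 counts over the CD45RBlo group, Rgs18 was at least 21.8-fold lower there than in naive cells. That floor is a convention, and the exact Poisson upper limit of 0.0469 CPM in CD45RBlo lies somewhat above it, at 0.0381 CPM. Platelet markers moved with it: all 12 on the list had counts in naive libraries, 8 in CD45RBhi and 7 in CD45RBlo. Their sum was 5.03 to 22.9 CPM in CD45RBhi, 6.88 to 23.3 CPM in CD45RBlo and 23.3 to 29.0 CPM in naive libraries. Without Itgb3, an integrin that made up nearly all of the sum in memory cells, it was 0.260 to 0.680 CPM in CD45RBhi, 0.145 to 0.340 CPM in CD45RBlo and 6.95 to 13.9 CPM in naive libraries. The defining platelet chemokine Ppbp had 0 counts in all memory libraries and 28 to 62 in naive libraries. The part of platelet RNA in the Rgs18 result was not tested.

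Rgs10, one of the smallest RGS proteins and selective for Gi-type alpha subunits, was the member with the largest decrease among those counted in every library. It had 5.02, 8.90, 6.71 and 9.47 CPM in CD45RBhi libraries, 4.87, 8.24, 6.25 and 6.54 CPM in CD45RBlo libraries, and 76.8, 69.7 and 72.5 CPM in naive libraries. Each naive library was several times above the highest memory library. Rgs10 was 9.69-fold lower in CD45RBhi (log2 −3.28 ± 0.207; edgeR adjusted p = 6.66e-08) and 11.2-fold lower in CD45RBlo than in naive cells (log2 −3.49 ± 0.210; edgeR adjusted p = 3.88e-08). The platelet, B cell, myeloid and erythroid marker sums given above were also higher in naive libraries, and their part in the Rgs10 result was not tested.

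Rgs19, also called GAIP, binds Gi-type alpha subunits and fell by a small step in both memory groups. Its libraries had 102.7, 122.0, 123.0 and 108.8 CPM in CD45RBhi, 105.2, 114.4, 124.1 and 94.3 CPM in CD45RBlo, and 149.5, 141.0 and 154.8 CPM in naive cells. All memory libraries lay below all naive ones. Rgs19 was 1.30-fold lower in CD45RBhi (log2 −0.38 ± 0.103; edgeR adjusted p = 0.00988) and 1.36-fold lower in CD45RBlo than in naive cells (log2 −0.44 ± 0.103; edgeR adjusted p = 0.00397).

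Rgs14, which carries Ras-binding domains and a GoLoco motif beside its RGS domain, was abundant in all groups. It had 141.3, 169.6, 150.6 and 140.0 CPM in CD45RBhi libraries, 139.3, 169.0, 177.6 and 164.6 CPM in CD45RBlo libraries, and 169.2, 175.8 and 168.6 CPM in naive libraries. The groups overlapped. The difference from naive cells was log2 −0.19 in CD45RBhi (95% interval −0.39 to 0.02; edgeR adjusted p = 0.140) and log2 −0.07 in CD45RBlo (−0.28 to 0.13; edgeR adjusted p = 0.572). The CD45RBhi difference passed the test without CD45RBhi replicate 2 (log2 −0.25, edgeR adjusted p = 0.0430).

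**Figure D2:**
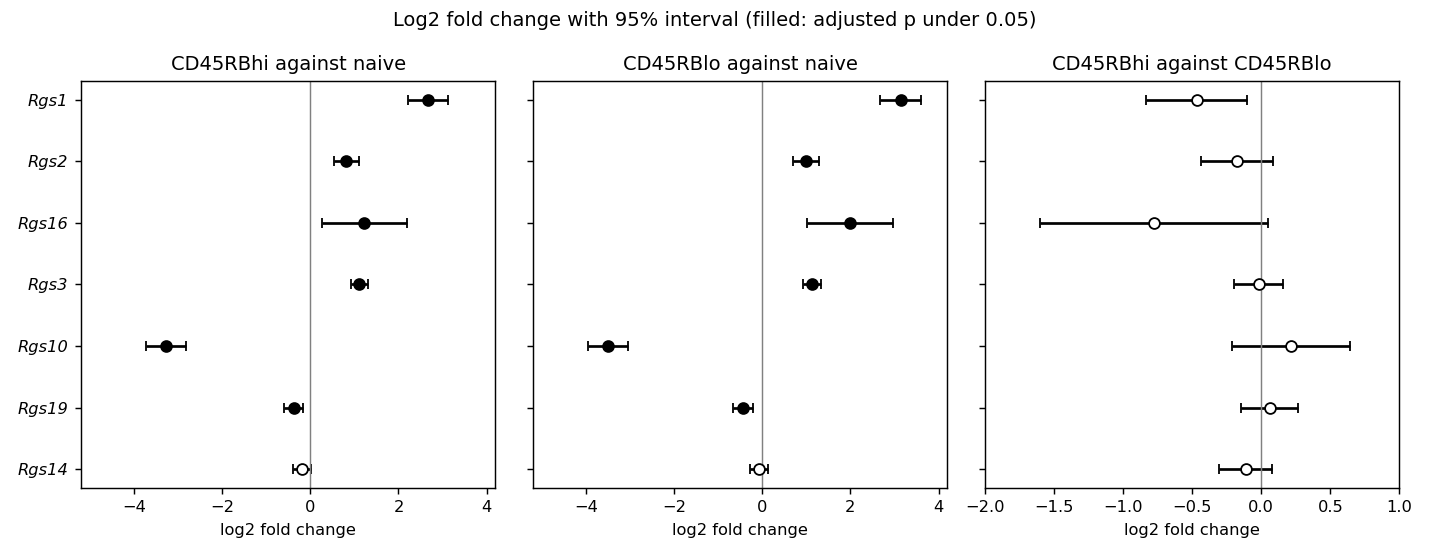
Log2 fold change of 7 RGS genes with the 95% interval (horizontal axis) for CD45RBhi against naive, CD45RBlo against naive and CD45RBhi against CD45RBlo. Of the 7 genes plotted, Rgs1 and Rgs10 lie farthest from 0 against naive cells, at 2.67 and −3.28 in CD45RBhi. Rgs18 is omitted because it had few or 0 counts in memory libraries.

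To compare levels between genes, CPM was divided by exon length in kilobases (kb). In naive cells Rgs19 was highest at 66.6 CPM per kb, followed by Rgs10 at 42.7 and Rgs14 at 40.4, whose libraries overlapped. Rgs3 (6.66 CPM per kb) and Rgs2 (3.07) came next, and Rgs16 (0.593), Rgs18 (0.410) and Rgs1 (0.298) were lowest, with overlapping libraries between Rgs16 and Rgs18 and between Rgs18 and Rgs1. In CD45RBhi cells the order was Rgs19 (51.2), Rgs14 (35.5), Rgs3 (14.4), Rgs2 (5.43), Rgs10 (4.40), Rgs1 (1.90) and Rgs16 (1.40 CPM per kb), in which the libraries of Rgs2 and Rgs10, and of Rgs1 and Rgs16, overlapped. CD45RBlo cells had the same order of means, at 49.1, 38.4, 14.6, 6.13, 3.78, 2.63 and 2.39 CPM per kb. There the libraries of Rgs10 and Rgs1, of Rgs1 and Rgs16, and of Rgs10 and Rgs16 overlapped. Rgs10 therefore made up 3.84% of the summed level of the 8 genes in CD45RBhi and 3.23% in CD45RBlo, against 26.6% in naive cells. Rgs3 made up 12.7% in CD45RBhi and 12.5% in CD45RBlo, against 4.15% in naive cells. The sum was 114 ± 7.43 CPM per kb in CD45RBhi, 117 ± 9.25 in CD45RBlo (SD, n = 4 each) and 161 ± 3.88 in naive cells (SD, n = 3). The annotated exons of Rgs1 together span the whole gene, introns included, so its level per kb is understated.

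**Figure D3:**
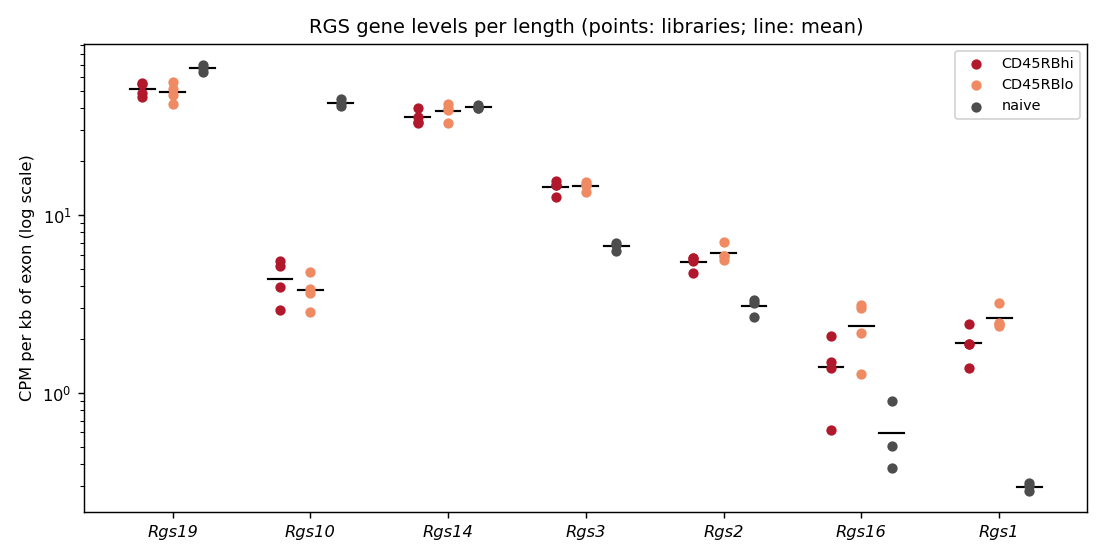
Level of each RGS gene in CPM per kb of exon on a log axis, with points for libraries of CD45RBhi, CD45RBlo and naive cells. Rgs19 is highest in all groups, while Rgs10 lies at 42.7 CPM per kb in naive cells and at 4.40 and 3.78 in CD45RBhi and CD45RBlo cells. Rgs18 is omitted because several libraries had 0 counts.

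CD45RBhi and CD45RBlo memory cells were then compared directly. None of the 8 members was called (edgeR adjusted p from 0.428 to 0.970), while 17 of 13735 genes (0.124%) were, 0.0801% higher and 0.0437% lower in CD45RBhi. At an unadjusted p under 0.05 there were 2 members, Rgs1 and Rgs18, beside 1236 of all genes (9.0%), and DESeq2 called none of the 8 after adjustment. CD45RBhi and CD45RBlo libraries overlapped for all 8 members, while 4.99% of all genes did not overlap. Same-numbered CD45RBhi and CD45RBlo libraries deviated together, so a fit with the number as a block was also made. It called 5.59% of 12637 genes (2.52% higher and 3.08% lower in CD45RBhi), and none of the 7 members in it, Rgs18 having too few counts.

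In the block fit, which leaves out Rgs18, Rgs1 and Rgs16 came nearest to a call. Rgs1 averaged 13.2 ± 3.04 CPM in CD45RBhi and 18.3 ± 2.66 CPM in CD45RBlo (SD, n = 4 each), a log2 difference of −0.47 (95% interval −0.83 to −0.10; edgeR adjusted p = 0.428). With the block it was −0.48 (edgeR adjusted p = 0.0657). Rgs1 was lower in CD45RBhi in 3 of 4 pairs and equal in the pair numbered 1. Without that pair the blocked difference was −0.64 and passed the test (edgeR adjusted p = 0.0413).

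Rgs16 averaged 3.27 ± 1.42 CPM in CD45RBhi and 5.59 ± 1.99 CPM in CD45RBlo (SD, n = 4 each), a log2 difference of −0.77 (95% interval −1.60 to 0.05; edgeR adjusted p = 0.579). With the block it was −0.80 (edgeR adjusted p = 0.0611). The pairs differed by −1.05, −1.02, −1.17 and −0.04 on the log2 scale, so that all were lower in CD45RBhi but the fourth by almost nothing. Without the fourth pair the blocked difference was −1.07 and passed the test (edgeR adjusted p = 0.0345).

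The fitted differences of the 5 further members in the block fit were smaller. Rgs2 was lower in CD45RBhi in 4 of 4 pairs (blocked log2 −0.17, interval −0.39 to 0.05, edgeR adjusted p = 0.369). Rgs10 was higher in 4 of 4 (blocked log2 0.21, interval −0.14 to 0.55, edgeR adjusted p = 0.496). Over all genes 29.0% had the same direction in all 4 pairs. The blocked difference was −0.02 for Rgs3 (interval −0.14 to 0.10), 0.06 for Rgs19 (−0.07 to 0.20) and −0.11 for Rgs14 (−0.25 to 0.03). Rgs18 had 8 counts over the CD45RBhi libraries and 0 over the CD45RBlo libraries. Exact Poisson intervals, which cover counting error only, were 0.0420 to 0.192 CPM in CD45RBhi and 0 to 0.0469 CPM in CD45RBlo, and the difference was not called (edgeR adjusted p = 0.458). For Rgs10 and Rgs16 the libraries numbered 1 were the lowest in both memory groups, and the same held for the non-members Rgs11 and Rgs12.

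**Figure D4:**
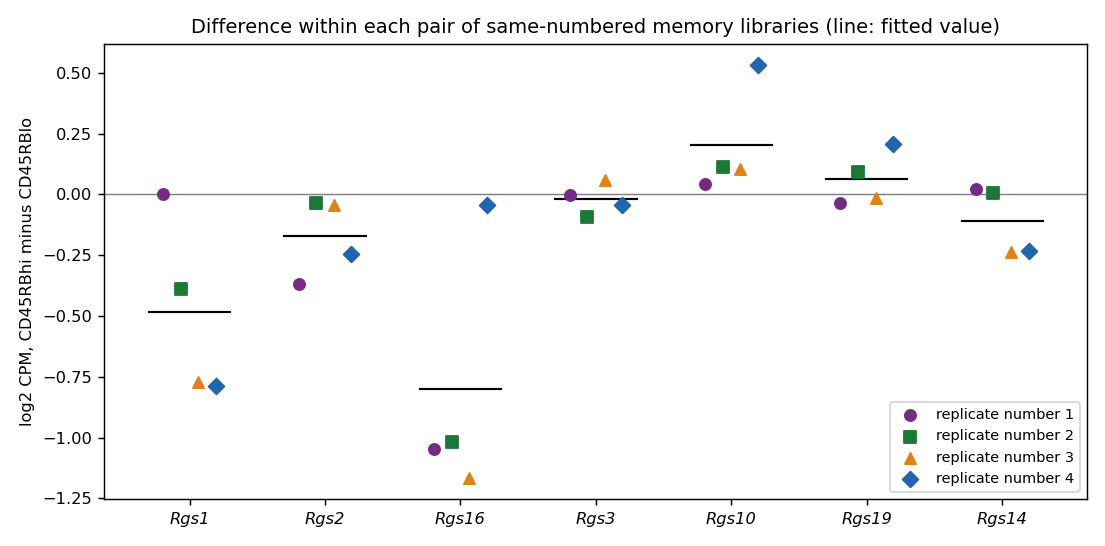
Difference in log2 CPM, CD45RBhi minus CD45RBlo, within each pair of same-numbered libraries (vertical axis) for 7 RGS genes (horizontal axis). Points are the 4 pairs and the black line is the value fitted with the block. Rgs16 and Rgs2 are lower in CD45RBhi in 4 of 4 pairs, Rgs1 in 3 of 4 with 1 pair equal, and none of the fitted differences passed the test. Rgs18 is omitted because it was not in that fit.

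Rgs1, Rgs2 and Rgs18 are neighbours on chromosome 1 and are read from the same strand. In GRCm38 Rgs2 lies at 143999338 to 144004161, Rgs1 at 144242296 to 144249242 and Rgs18 at 144752683 to 144775435, a span of 776 kb. Rgs2 and Rgs1 were higher in memory cells, while Rgs18 had more counts in naive cells. Rgs13 and Rgs21, R4 genes between them, had 0 counts in all libraries. Rgs16 lies 8965 kb farther along at 153740349 to 153745468 on the plus strand. Rgs3 is on chromosome 4 (62559847 to 62704001), Rgs10 on chromosome 7 (128373621 to 128418758), Rgs14 on chromosome 13 (55369732 to 55384687) and Rgs19 on chromosome 2 (181688419 to 181693977). Of 44 tested protein-coding genes within 200 kb of a member, 13 were higher and 8 lower in CD45RBhi than in naive cells. In CD45RBlo 11 were higher and 5 lower than in naive cells. Genes called in either direction made up 41.5% of all genes in CD45RBhi and 42.2% in CD45RBlo, so called neighbours were about as common as called genes elsewhere.

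Of 13 further genes named Rgs and a number, 9 had 0 counts in every library, Rgs20 had at most 1 and Rgs9 at most 5. Rgs12 averaged 3.92 CPM in CD45RBhi, 3.60 in CD45RBlo and 3.54 in naive cells and was not called. Rgs11, an R7 member that pairs with the atypical beta subunit Gnb5, averaged 4.43 CPM in CD45RBhi, 6.07 in CD45RBlo and 22.4 in naive cells. It was lower in CD45RBhi (log2 −2.33, edgeR adjusted p = 0.00116) and in CD45RBlo (−1.88, edgeR adjusted p = 0.00428), with the antisense-strand gene Arhgdig overlapping it. Gnb5 itself was higher in CD45RBhi (log2 0.81, edgeR adjusted p = 0.0197) and in CD45RBlo (1.54, edgeR adjusted p = 0.00031) than in naive cells.

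Of 9 tested alpha subunits, on which RGS proteins act, 3 were higher and 0 lower in each memory group than in naive cells. Beside them, over all genes, 22.3% were higher and 19.1% lower in CD45RBhi, and 22.4% higher and 19.8% lower in CD45RBlo. The same shares stand beside the counts against naive cells in the lists below. Gna15, a Gq-class subunit of blood cells, averaged 105 CPM in CD45RBhi, 125 CPM in CD45RBlo and 16.5 CPM in naive cells (log2 2.67 and 2.92 for the memory groups; edgeR adjusted p = 7.97e-10 and 3.90e-10). Gnai2, the main Gi subunit of lymphocytes, averaged 1040 CPM in CD45RBhi, 1035 CPM in CD45RBlo and 876 CPM in naive cells (log2 0.25 and 0.24; edgeR adjusted p = 0.0113 and 0.0133). Gnai3 was higher in CD45RBhi (log2 0.22, edgeR adjusted p = 0.0337), and Gna11 in CD45RBlo (0.44, edgeR adjusted p = 0.0104). Of 11 beta and gamma subunits, 4 were higher and 1 lower in CD45RBhi, and 4 higher and 2 lower in CD45RBlo. Gng2 averaged 83 CPM in CD45RBhi, 82.4 CPM in CD45RBlo and 24.6 CPM in naive cells, while Gngt2 was lower in both memory groups (log2 −1.06 and −1.24) and Gng12 in CD45RBlo (−1.63).

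Of 41 receptors of lymphocytes tested, 26 were higher and 5 lower in CD45RBhi, and 25 higher and 6 lower in CD45RBlo than in naive cells. The sphingosine 1-phosphate receptor S1pr5 averaged 364 CPM in CD45RBhi, 501 CPM in CD45RBlo and 0.547 CPM in naive cells. The chemokine receptor Cx3cr1 averaged 580 CPM in CD45RBhi, 818 CPM in CD45RBlo and 1.55 CPM in naive cells. Cxcr3 averaged 982 CPM in CD45RBhi, 829 CPM in CD45RBlo and 41.6 CPM in naive cells, and Ccr2 averaged 313 CPM in CD45RBhi, 309 CPM in CD45RBlo and 0.416 CPM in naive cells. None of the 41 was called between the memory groups without the block. With it, 7 of 39 were higher and 5 lower in CD45RBhi, beside 2.52% higher and 3.08% lower over all genes. With the block S1pr5 and Cx3cr1 were lower in CD45RBhi than in CD45RBlo (log2 −0.48 and −0.51; edgeR adjusted p = 0.00444 and 0.00074), and Cxcr3 was higher (0.25; edgeR adjusted p = 0.0106).

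Of 26 effectors below G proteins, 12 were higher and 6 lower in CD45RBhi, and 12 higher and 5 lower in CD45RBlo than in naive cells. In what follows, paired values are log2 fold changes against naive cells, CD45RBhi before CD45RBlo, all with an edgeR adjusted p of 0.0370 or less. The cAMP phosphodiesterase Pde4b was lower (log2 −1.54 in CD45RBhi and −1.61 in CD45RBlo), as was the phospholipase Plcb2 (−1.78 and −1.80), while Pde4a (3.65 and 3.81) and the GTPase Rac2 (0.75 and 0.67) were higher. Of 14 other proteins with an RGS-like domain, 2 were higher and 5 lower in CD45RBhi, and 4 higher and 4 lower in CD45RBlo. The receptor kinase Grk6, which lies 60.4 kb from Rgs14, was lower (log2 −0.71 and −0.77). The sorting nexin Snx14 was higher (0.78 and 0.71). Of 9 other handlers, 1 was higher and 4 lower in CD45RBhi, and 2 higher and 3 lower in CD45RBlo. Among them the GoLoco protein Gpsm2 (log2 −1.0 and −1.10), the arrestin Arrb1 (−1.88 and −1.41) and Gnl1 (−0.56 and −0.58) were lower, and Gpsm1 was higher (0.31 and 0.70). Gnl1 and Gps1 were listed by name, and whether they act on heterotrimeric G proteins is uncertain. With the block, Gnb5 (log2 −0.76, edgeR adjusted p = 0.0251) and Gpsm1 (−0.39, edgeR adjusted p = 0.0296) were lower in CD45RBhi than in CD45RBlo.

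Likeness across the 11 libraries was measured as the root mean square difference of log2 CPM after centring each gene, over 8022 to 8023 genes. This is a description, since all genes share the libraries and groups. Ccr7, the chemokine receptor that guides naive T cells to lymph nodes, was most like Rgs10 at 0.209, followed by Usp28 at 0.233, beside a median of 1.57 over all genes. Pmaip1, a pro-apoptotic BCL2-family protein, was most like Rgs1 at 0.204, followed by Palm at 0.211. Rgs16 was nearest to Tox, a regulator of T cell differentiation, at 0.358 and to Serpinb1a at 0.363. Rgs18 was nearest to H2-Oa at 0.400 and Sh3bp5 at 0.504, Rgs3 to Cipc at 0.0593 and Osbpl5 at 0.0611, and Rgs2 to Zfp41 at 0.0746 and Rps6ka4 at 0.107. Rgs14 was nearest to Nipsnap1 at 0.0616 and Rabggta at 0.0619, and Rgs19 to Wdr75 at 0.0745 and Idua at 0.0749.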

How the data were processed

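RNA-seq of 11 libraries of sorted mouse CD8 T cells was deposited by the authors as raw read counts per gene. The submitters' processing notes name GRCm38 (mm10), SAMtools, featureCounts and DESeq2. The aligner, annotation release and strand setting were not given in the sources used here. These deposited counts were tested with edgeR 4.0.16 (R 4.3.3), using TMM normalisation, a minimum count of 10, all 11 libraries in one quasi-likelihood fit and Benjamini-Hochberg adjustment over 13735 genes. Variation between libraries beyond counting error, biological or technical, was 18.7% (9.88% in the block fit of memory libraries). CPM were computed from the counts and the TMM-normalised library sizes. Intervals are 95%.

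Members and gene lists were chosen with earlier results of these data known. The text names all 8 members, each tested further RGS gene, up to 4 genes per pathway list by smallest p, and 2 genes most like each member. Of the genes this rule names, 2 are not reported here.

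Same-numbered CD45RBhi and CD45RBlo libraries correlated in their deviations from group means (0.191 to 0.452, against at most 0.0284 for other pairs), so the numbers were taken as pairs from the data; the labels do not state a pairing. Between memory and naive libraries the range was −0.105 to 0.0422, and no pairing was assumed. No 2 libraries of the same group agreed within sampling noise (chi-square per degree of freedom 10.2 to 93.3), and pairs across groups were not checked. Alternatives were other scalings, filters and tools (DESeq2 1.42.0, limma 3.58.1), blocks and left-out libraries. The fits were tested on simulated counts. Gene spans are from GENCODE M21 on GRCm38, which held 52489 of the 52636 gene IDs.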

Additional observations from a re-analysis of the deposited data

Results flagged for a closer look

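Rgs1 in CD45RBlo replicate 3 stood apart from its group at 22.3 CPM, the nearest of the other 3 libraries being at 17.2 CPM. The gap was 0.898 of the group's whole range, above Dixon's 95% critical value for 4 samples. This was 1 of 15 groups of libraries tested, and chance flags about 1 in 20.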

How the results depend on the processing

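With Rgs18 counted, the 8 members against naive cells gave 152 values under the alternatives in each memory group. All 152 kept their direction and side of the threshold in CD45RBlo, where 7 members were called in every fit. In CD45RBhi 139 did, and 5 to 7 members were called (6 to 7 with 1 library left out). Rgs16 in CD45RBhi also missed the threshold with library size scaling (log2 1.08, edgeR adjusted p = 0.0671), which moved the median of all genes to −0.16, with only CD45RBhi and naive libraries fitted (1.21, edgeR adjusted p = 0.0556), and with the replicate block (0.97, edgeR adjusted p = 0.240). The replicate block also ended the Rgs19 call (−0.36, edgeR adjusted p = 0.0793), although the numbers do not pair memory with naive libraries. Rgs14 in CD45RBhi was called with library size scaling (−0.33, edgeR adjusted p = 0.0239).

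Between CD45RBhi and CD45RBlo 0 members were called in all fits except the replicate block without pair 1 (1 member, Rgs1) and without pair 4 (1 member, Rgs16). With 1 library left out, Rgs3 ranged from −0.0559 to 0.0417 and Rgs19 from −0.0045 to 0.12. Differences near 0 changed sign: Rgs3 was 0.0417 without CD45RBhi replicate 2, 0.0046 without CD45RBlo replicate 4 and 0.0034 in the replicate block without pair 2, and Rgs19 was −0.0045 without CD45RBlo replicate 4. Apart from what the exclusions themselves remove, the cause was not tested. Without Rgs18, 121 of 133 values in CD45RBhi and 133 of 133 in CD45RBlo kept both. Depth limits Rgs18, with at most 25 counts, and Rgs16, with 17 to 145 counts per library.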
